A study of Mus musculus with 12 samples.

Results

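The integrin and laminin genes of mouse muscle stem cells (MuSCs) were followed from the freshly sorted cell through culture and compression. Members were chosen by gene symbol alone, as every gene named Itga, Itgb, Lama, Lamb or Lamc with a chain number or letter. This gave 37 of the 55335 genes counted, with 18 integrin alpha, 8 integrin beta and 11 laminin genes. All 37 were among the 22635 genes with enough reads to be tested.

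The cells were ZsGreen+ cells taken by flow cytometry from hindlimbs of mice aged 3 to 6 months with a Pax7-ZsGreen transgene, in which the Pax7 promoter drives the green reporter, so every group carried this transgene. Cells of the F group (labelled fresh) went from the sorter into TRIzol. The 2d-U (labelled 2dU) and 5d-U (labelled control) cells were cultured without compression for 2 and 5 days on plastic coated with Matrigel and fibronectin, and the 2+3d-C cells (labelled compress) were cultured for 2 days and then compressed for 3 days in the same growth medium. Each group had 3 libraries, with the numbers 1, 4 and 5 for F, 1, 2 and 3 for 2d-U, 1, 2 and 6 for 5d-U, and 4, 5 and 10 for 2+3d-C. Values of single libraries are given in this order throughout. The labels do not tie libraries to single mice or cultures, so p-values measure the spread between libraries, which may be partly technical.

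A laminin is a trimer of an alpha, a beta and a gamma chain, and laminins are the network-forming glycoproteins of the basement membrane, the sheet of matrix between the MuSC and the tissue around the myofiber. The laminin of adult muscle fibers is mainly built from the alpha2, beta1 or beta2 and gamma1 chains, and a loss of the alpha2 chain gives a congenital muscular dystrophy. Integrins are receptors of 1 alpha and 1 beta chain that link such matrix proteins to the actin cytoskeleton. Alpha7beta1 and alpha6beta1 bind laminin, alpha5beta1 and the alphav integrins bind fibronectin, vitronectin and other ligands through the RGD motif, and the beta2 integrins are receptors of leukocytes.

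Levels are given as RPKM (reads per kilobase of exon, relative to the TMM-scaled size of the library), which corrects for exon length. Differences are log2 fold changes ± SE from edgeR's quasi-likelihood test, adjusted by the Benjamini-Hochberg method over all tested genes, and genes with an adjusted p under 0.05 are named as called, or as having risen or fallen. Reads on genes ranged from 12540745 (2+3d-C replicate 5) to 62424851 (2+3d-C replicate 4) per library, so that 3 reads correspond to 0.239 to 0.0481 CPM. A gene with 3 or fewer reads in every library of a group is described as at the detection limit, and its fold is given as a limit computed against 3 reads per library. In bulk RNA, fewer cells that express a gene and less RNA per cell cannot be told apart.

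Several libraries stood apart before any comparison was made. Reads on 1853 autosomal genes of families that muscle does not use (receptors of smell, taste and pheromones, keratin-associated proteins and alpha-defensins) reached 5.12 and 7.24 per kb of exon in F replicates 4 and 5, 3.84 in 5d-U replicate 1 and 0.641 in 5d-U replicate 6, against 0.00967 to 0.229 in the other 8 libraries. Low levels in these 4 libraries may include reads of this kind, whose source is not known. Comparisons with F or 5d-U are therefore also given with these libraries left out or with such reads subtracted. Expected reads and the subtraction assume that such reads fall on all genes in proportion to exon length, which was not tested.

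Of 9 MuSC markers 7, with Pax7, Myf5, Myod1, Cdh15 and Vcam1 among them, had reads in every library, while Calcr was at 0 in 2d-U replicates 2 and 3 and 5d-U replicate 2 and Chrdl2 in 2d-U replicate 2. The summed level of the 9 markers was 2963 to 7087 CPM for F, 2194 to 2615 for 2d-U, 2302 to 3538 for 5d-U and 16335 to 18068 for 2+3d-C. This sum includes Myod1, whose protein the paper uses to mark progenitors and committed cells. Mean Myod1 was 489 RPKM in F, 655 in 2d-U, 944 in 5d-U and 3186 in 2+3d-C. Single markers differed in their order. By group means Pax7, Myf5, Myod1 and Cdh15 were lowest in F. Vcam1, Sdc4, Calcr and Chrdl2 were higher in F than in both uncompressed cultures, and Des in F lay between them. Markers of other cells of muscle also differed between groups. The 6 fibroadipogenic markers summed to 2216 to 7731 CPM for F, 4.63 to 11.6 for 2d-U, 9.07 to 55.9 for 5d-U and 512 to 978 for 2+3d-C, and the 6 endothelial markers to 929 to 1341, 2.73 to 6.42, 2.06 to 27.8 and 205 to 229 CPM in the same order. Smooth muscle and pericyte markers (5 genes) reached 333 to 614 CPM in F and 81.1 to 143 CPM in 2+3d-C, and glial markers (5 genes) 196 to 275 and 71.8 to 133 CPM, while neither sum passed 15.1 CPM in an uncompressed culture. Immune markers (8 genes) summed to 495 to 1918 CPM for F, at most 2.44 for 2d-U, 1.54 to 140 for 5d-U and 5.48 to 115 for 2+3d-C. In 2+3d-C Ptprc, Adgre1 and Cd3e had 3 or fewer reads in every library, and Csf1r and Cd79a were at most at 0.332 RPKM. Lyz2 was at 21.2, 53.4 and 3.96 RPKM there, S100a8 at 28.1, 54.5 and 0 and Cd68 at 4.27, 4.71 and 0.218. The markers of other cells moved in the same direction as many integrin and laminin genes, and their part in the results was not tested.

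The map of levels by library shows which chains the cells used. Itgb1, which encodes the common beta1 chain, was the most abundant member in all 4 groups, with 236 ± 8.14 RPKM for F, 143 ± 27.6 for 2d-U, 118 ± 66.5 for 5d-U and 152 ± 77.8 for 2+3d-C (mean ± SD, n = 3). Next in order were Itga5, Lamb2, Itgb5 and Lamc1 in F, but Itga7, Itga5, Itga3 and Lamb3 in 2d-U, and Itga7, Lamb3, Itga6 and Itga3 in 5d-U. In 2+3d-C the order was Itga5, Itga7, Lamb2 and Lamc1, and neighbours in these orders often differed by less than the spread of their libraries.

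**Figure D1:**
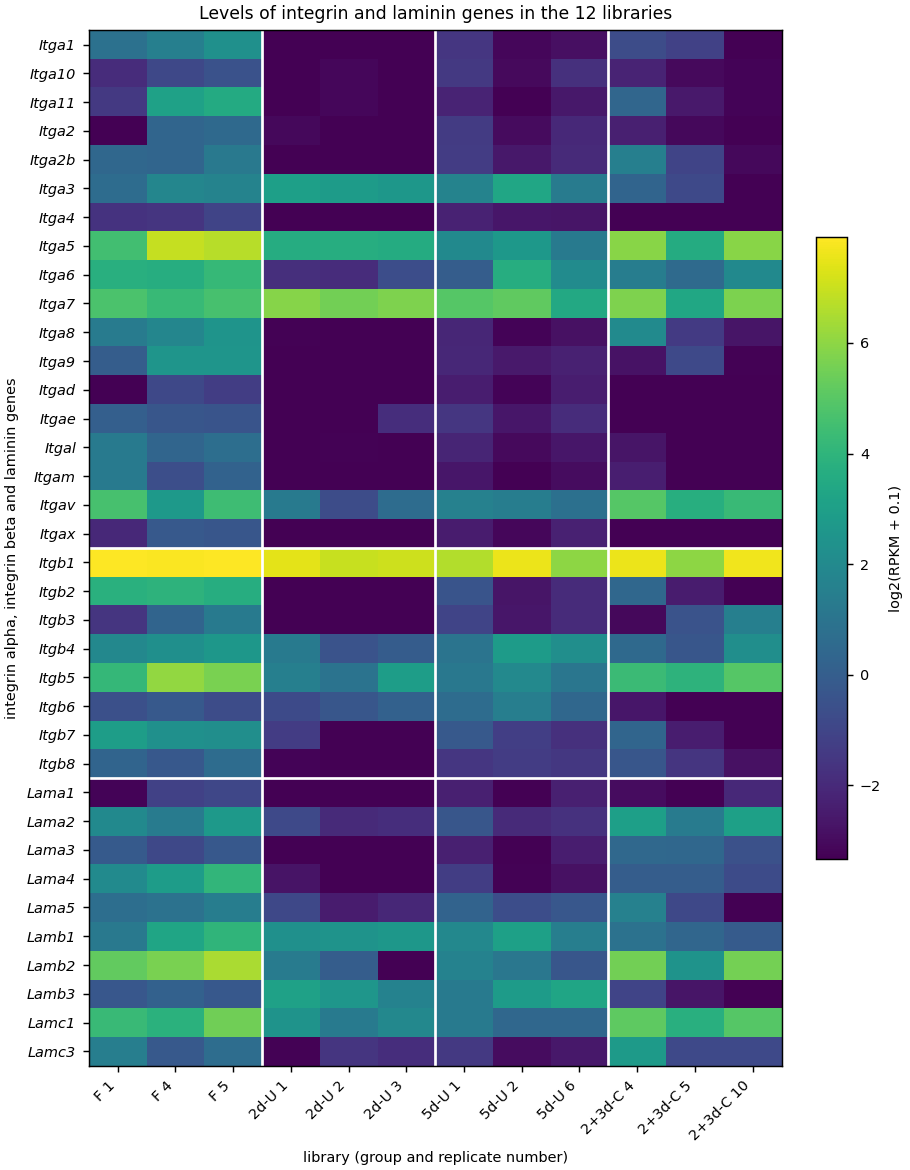
Level of the integrin and laminin genes described here (rows) in each of the 12 libraries (columns, named by group and replicate number), as log2(RPKM + 0.1) on the colour scale. The Itgb1 row is bright in every library, and many rows that are bright in F are dark in 2d-U.

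The number of chains above the limit of 3 reads differed between the groups. From the density on silent families 14.2 to 135 reads per member would be expected in F replicates 4 and 5. In 5d-U replicate 1 it would be 10.6 to 71.4 reads, and in 2d-U at most 0.694. Such reads alone could pass the limit in these F and 5d-U libraries, and their part in the counts was not tested. In F, 34 members had more than 3 reads in every library, and in 2d-U 15 did. At the same time 15 members were at the detection limit in all 3 libraries of 2d-U, and 11 of these had no read at all. In 5d-U 28 members had more than 3 reads in every library, and in 2+3d-C 18 did, with Itga4, Itgad, Itgae and Itgax at 0 reads in all 3 compressed libraries.

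Compression against culture for the same 5 days (2+3d-C against 5d-U) gave 10 members that rose and 7 that fell. Among all genes tested, 9.14% rose and 13.4% fell, so the shares of members that rose (27%) and that fell (18.9%) were both above those of all genes. The median log2 fold change was 0.53 over the members and -1.05 over all genes. The median over all genes was -0.00013 at a mean of at least 5 CPM and -0.24 after subtraction of reads on silent families. Of the 11 laminins 6 rose (54.5%) and 2 fell (18.2%). Of the 26 integrins 4 rose (15.4%) and 5 fell (19.2%). In descending order of their change, risers described here were Itga8, Lamc3, Lama2, Lamb2, Lama3, Lamc1, Itga5, Itgav and Itgb5.

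**Figure D2:**
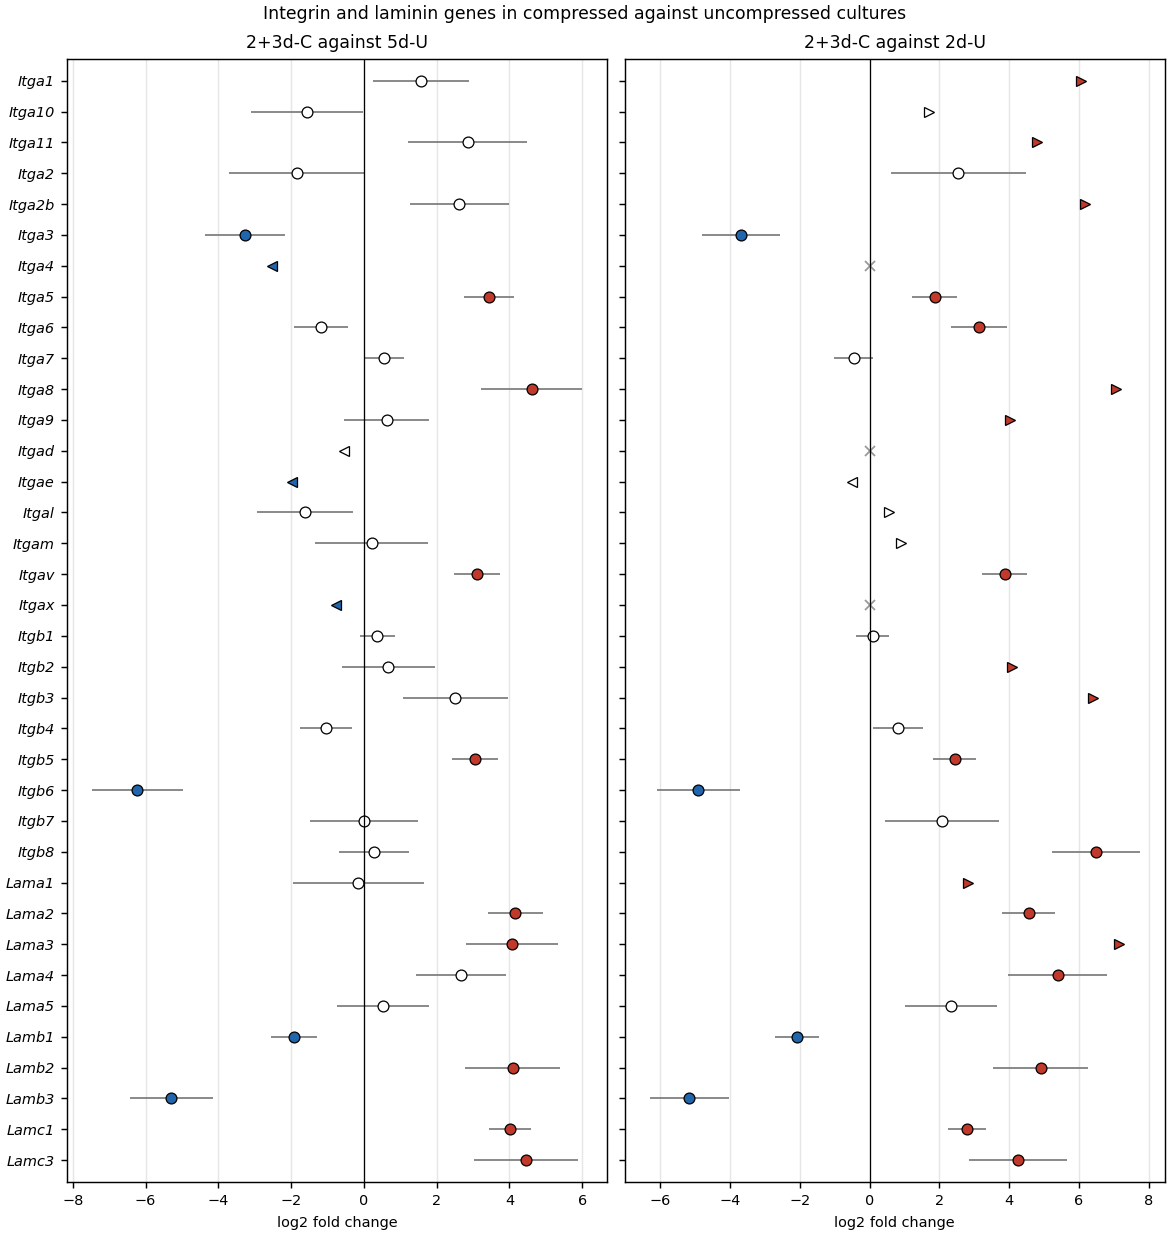
Log2 fold change (x axis) of the members described here (y axis) in 2+3d-C against 5d-U (left) and against 2d-U (right). Circles are fitted values with bars of 1 SE, triangles are limits for genes with 3 or fewer reads in every library of a group, and crosses mark genes at that limit in both. Red is called higher, blue called lower and white not called. Lamb1, Lamb3, Itga3 and Itgb6 lie at negative values in both panels, while Itgav, Itgb5, Lama2 and Lamc1 lie at positive values in both.

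Among the laminin beta chains, Lamb2 gave way to Lamb1 and Lamb3 in culture and was again the leading chain under compression. Lamb2 (chr9:108479736-108490530, + strand, mm10) encodes the beta2 chain, which in muscle is known from the neuromuscular synapse. Its level was 36.7, 50.0 and 88.8 RPKM for F, 2.43, 0.882 and 0 for 2d-U, 3.07, 2.07 and 0.692 for 5d-U and 45.7, 5.34 and 47.8 for 2+3d-C. Of the compressed libraries 2 were within the range of F and replicate 5 was far lower, yet all 3 lay above every uncompressed culture. Lamb2 was higher under compression than in 5d-U (4.08 ± 1.31, adjusted p = 0.0365) and than in 2d-U (4.9 ± 1.36, adjusted p = 0.0173), and the difference from F was not significant (-0.83 ± 1.16, adjusted p = 0.652). The call against 5d-U was lost when 5d-U replicate 2 or 6 or 2+3d-C replicate 4 or 10 was left out (adjusted p = 0.0528 to 0.103).

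Lamb3 (chr1:193207699-193343878, + strand) encodes the beta3 chain of epithelial laminin-332 and moved the other way. It was at 0.717, 1.03 and 0.762 RPKM for F, 8.55, 5.96 and 3.08 for 2d-U, 2.37, 7.02 and 9.71 for 5d-U and 0.40, 0.0548 and 0 for 2+3d-C. The uncompressed cultures were all above F, and the 3 compressed libraries were below all others, the last of them with no read. Lamb3 was the only member that rose from F to 2d-U (2.81 ± 1.02, adjusted p = 0.0402), and it fell under compression against 5d-U (-5.29 ± 1.15, adjusted p = 0.0046) and 2d-U (-5.17 ± 1.14, adjusted p = 0.00478). The rise to 2d-U rested on few libraries, since it was lost without either F replicate 1, 4 or 5 or 2d-U replicate 1 or 2 (log2 fold change 2.45 to 2.99, adjusted p = 0.0667 to 0.106).

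Lamb1 (chr12:31265234-31329644, + strand), the chain of most early and adult basement membrane laminins, was at 2.23, 9.72 and 16.4 RPKM for F, 4.88, 5.34 and 6.05 for 2d-U, 3.63, 8.16 and 2.73 for 5d-U and 1.78, 1.21 and 0.848 for 2+3d-C. The compressed libraries were the lowest of all 12. The log2 fold change was -1.92 ± 0.63 (adjusted p = 0.0416) against 5d-U, -2.08 ± 0.64 (adjusted p = 0.0277) against 2d-U and -2.89 ± 0.66 (adjusted p = 0.0247) against F, so Lamb1 was the only laminin called lower in compressed cells than in F. These calls were at the edge of the threshold. Leaving out F replicate 4, 5d-U replicate 2 or any 2+3d-C library gave an adjusted p of 0.0507 to 0.129 against 5d-U, and leaving out 2d-U replicate 2 or 3 or 2+3d-C replicate 5 or 10 gave 0.0521 to 0.0767 against 2d-U. The call against F was lost without F replicate 4 or 5 or 2+3d-C replicate 5 or 10 (0.057 to 0.0993).

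As a share of the summed RPKM of the 3 beta chains, Lamb2 made up 86.2% in F (82.3 to 92.6% over the libraries) and 91.5% in 2+3d-C (80.9 to 98.3%). In 2d-U its share was 7.52% (0 to 15.3%) and in 5d-U 17.0% (5.27 to 33.8%), and the ranges of the compressed and the uncompressed cultures did not overlap. Lamb3 took 45.5% in 2d-U, 46.9% in 5d-U and 0.555% in 2+3d-C. These shares describe the mixture of transcripts in a library and do not depend on the scaling of the libraries.

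**Figure D3:**
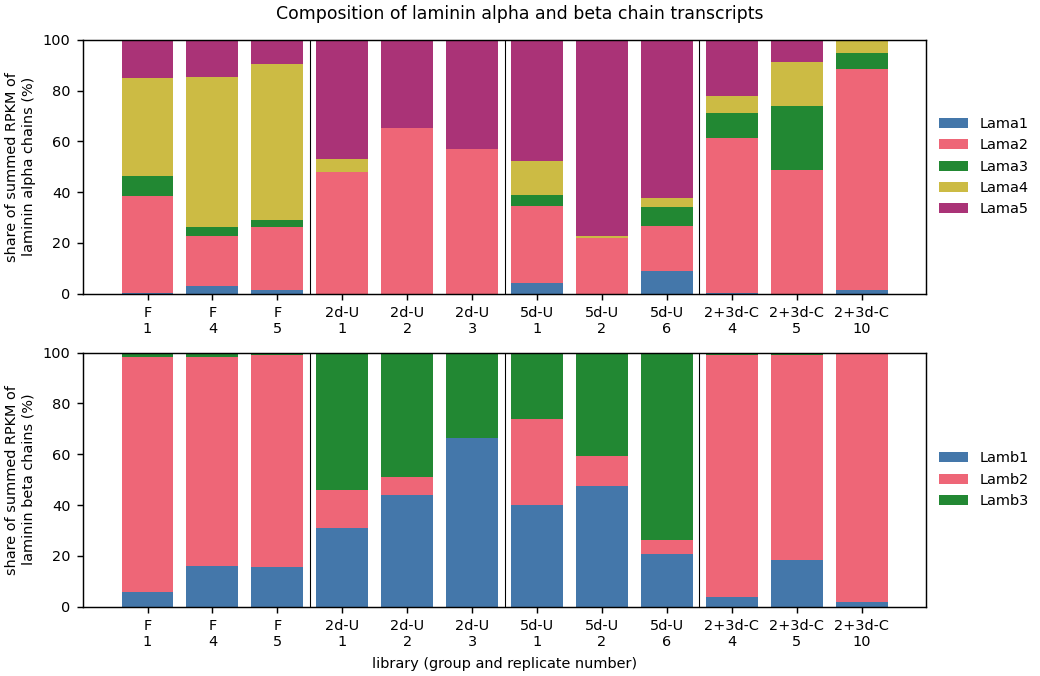
Share of each chain (y axis, percent) in the summed RPKM of the laminin alpha (top) and beta chains (bottom) in each library (x axis, group and replicate number). Lamb2 fills most of the beta bar in F and 2+3d-C, and Lamb1 and Lamb3 fill most of it in 2d-U and 5d-U.

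Of the gamma chains, Lamc1 and Lamc3 rose under compression. Lamc1 (chr1:153218922-153332786, - strand), whose gamma1 chain is part of nearly all laminins of muscle, was at 19.6, 14.4 and 44.3 RPKM for F, 5.4, 2.3 and 3.71 for 2d-U, 2.38, 1.27 and 1.24 for 5d-U and 34.5, 13.3 and 31.2 for 2+3d-C. Each compressed library was above every uncompressed one and the levels overlapped those of F. Lamc1 had the smallest adjusted p of any member against 5d-U (4.02 ± 0.59, adjusted p = 0.000333), and it remained called with any single library left out (log2 fold change 3.76 to 4.38) and without the 4 libraries with reads on silent families (4.38, adjusted p = 0.0323). It was also higher than in 2d-U (2.79 ± 0.56, adjusted p = 0.0025), and against F the difference was 0.01.

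Lamc3, the gamma3 chain, was at 0.264, 0.0286 and 0.0642 RPKM for 5d-U and 6.93, 0.456 and 0.465 for 2+3d-C, where 1 library was far above the other 2. Its log2 fold change of 4.46 ± 1.42 (adjusted p = 0.0365) fell to 1.94 (adjusted p = 0.269) without that library, 2+3d-C replicate 4, and the call was also lost without 5d-U replicate 2 or 6 (adjusted p of 0.0872 or above).

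Among the alpha chains, which carry the binding sites for integrins and dystroglycan, Lama2 was the chain that rose most firmly. Lama2 (chr10:26980036-27619758, - strand; 3.8% of its exon bases overlap Gm48084) was at 3.96, 2.43 and 6.66 RPKM for F, 0.457, 0.156 and 0.179 for 2d-U, 0.692, 0.149 and 0.206 for 5d-U and 8.05, 2.45 and 8.12 for 2+3d-C. All compressed libraries were above all uncompressed cultures, and 2 of them were above all F libraries. The difference was 4.15 ± 0.75 (adjusted p = 0.00147) against 5d-U, 4.55 ± 0.77 (adjusted p = 0.000752) against 2d-U and 0.51 ± 0.66 (adjusted p = 0.621) against F, and against 5d-U it kept its call with any single library left out and without the 4 libraries with reads on silent families (5.38, adjusted p = 0.0469). Lama2 made up 65.5% of the summed alpha chain RPKM in 2+3d-C, 56.7% for 2d-U, 27.6% for F and 23.3% for 5d-U.

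The other alpha chains differed from Lama2 in their course. Lama4, the alpha4 chain of vessels, peripheral nerve and mesenchyme, was the leading alpha chain of F, with 53.0% of their summed RPKM, and was at 3.99, 7.22 and 16.6 RPKM for F, 0.0486, 0 and 0 for 2d-U, 0.306, 0.00578 and 0.0405 for 5d-U and 0.883, 0.881 and 0.488 for 2+3d-C. Every compressed library was above every uncompressed culture and below every F library. Lama4 rose against 2d-U (5.39 ± 1.42, adjusted p = 0.0132), and the differences from 5d-U (2.67 ± 1.24, adjusted p = 0.113) and from F (-3.63 ± 1.27, adjusted p = 0.0881) did not pass the threshold. Lama4 was highest in F and next in 2+3d-C, as were the summed markers of vessel and stromal cells given above. The part of these cells in the level of Lama4 was not tested.

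Lama3, the alpha3 chain of laminin-332, had no read in 2d-U and 5d-U replicate 2, was at 0.817, 0.443 and 0.758 RPKM in F and at 1.31, 1.26 and 0.591 in 2+3d-C. In the other 2 libraries of 5d-U it had 25 and 19 reads, where 41.3 and 6.89 reads would be expected from the density on silent families. It was at least 141-fold higher under compression than in 2d-U (adjusted p = 0.000964) and rose against 5d-U (4.07 ± 1.27, adjusted p = 0.0369), a call that 7 of the 12 single libraries ended (adjusted p = 0.0504 to 0.0935), namely F replicates 4 and 5, all of 5d-U, and 2+3d-C replicates 4 and 5. Lama5, the broadly made alpha5 chain, was at 1.55, 1.81 and 2.61 RPKM for F, 0.445, 0.0826 and 0.136 for 2d-U, 1.09, 0.53 and 0.722 for 5d-U and 2.93, 0.435 and 0 for 2+3d-C, with 1 compressed library at 0 and another above all others, and no comparison called it. Lama1, the alpha1 chain of the embryo and of Matrigel, was low, with 2, 105 and 162 reads for F, 22, 0 and 20 for 5d-U, 15, 0 and 31 for 2+3d-C and none for 2d-U. It was at least 31.4-fold lower in 2d-U than in F (adjusted p = 0.018). From the density on silent families 2.22, 49.6 and 70.1 reads would be expected on Lama1 in the F libraries. The call was lost with the replicate number as a block. The rise of Lama1 in 2+3d-C against 2d-U ended with any of 8 libraries left out (adjusted p = 0.0586 to 0.118).

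**Figure D4:**
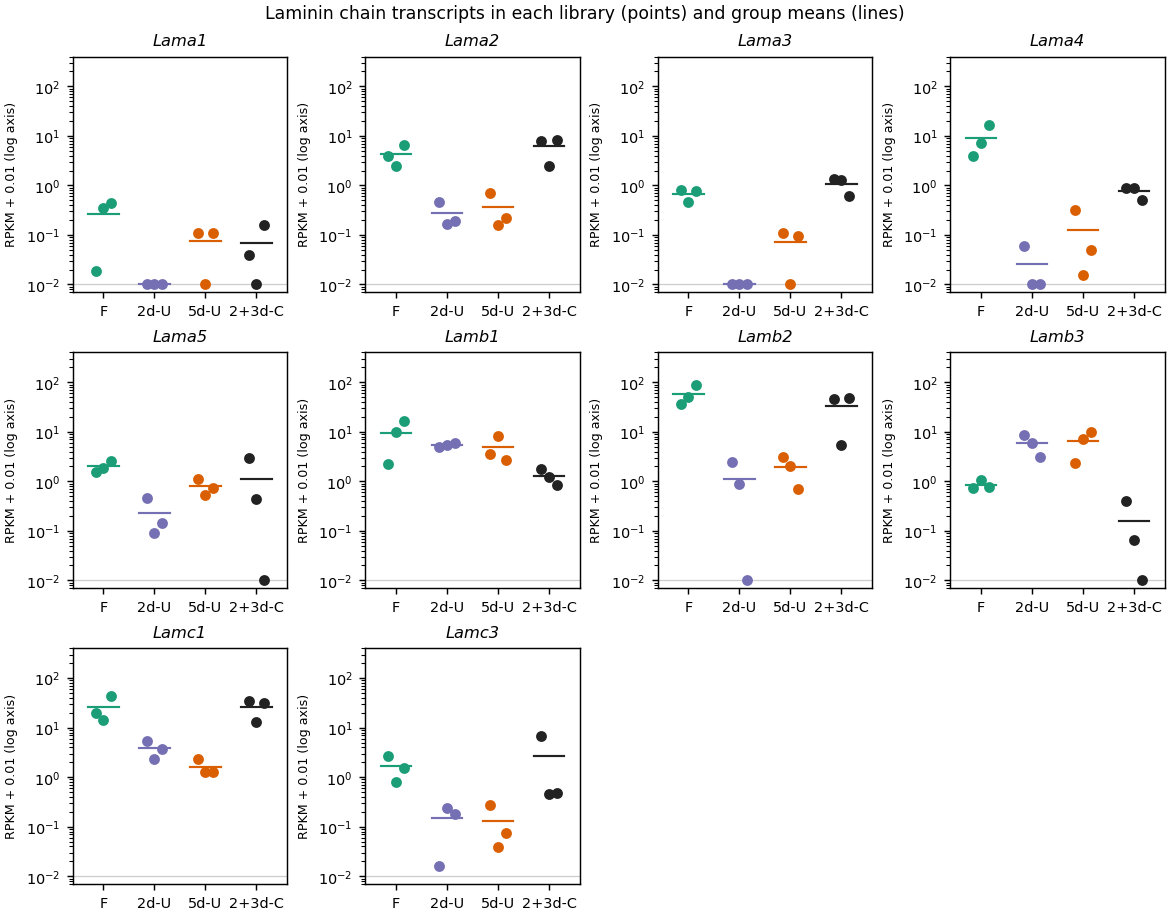
Level of the laminin genes described here (y axis, RPKM + 0.01 on a log axis) in the 3 libraries of each group (x axis). Points are libraries and lines are group means, and points on the grey line are at 0. For Lamb2, Lamc1 and Lama2 all points of 2+3d-C are above all points of 2d-U and 5d-U, and for Lamb1 and Lamb3 all are below.

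Of the RGD-binding integrins, the alphav chain and the beta5 chain rose under compression while the beta6 chain fell. Itgav (chr2:83724397-83806916, + strand, with 5.9% of its exon bases shared with Gm13684) encodes alphav, which pairs with beta1, beta3, beta5, beta6 or beta8. Its level was 25.1, 6.57 and 21.4 RPKM for F, 2.32, 0.503 and 1.47 for 2d-U, 3.0, 2.59 and 1.69 for 5d-U and 30.4, 13.1 and 19.5 for 2+3d-C. The compressed libraries were all above the uncompressed ones and within or just above the range of F. Itgav was higher under compression than in 5d-U (3.11 ± 0.63, adjusted p = 0.00287) and 2d-U (3.87 ± 0.65, adjusted p = 0.000705), had fallen from F to 2d-U (-3.63 ± 0.64, adjusted p = 0.00109) and did not differ significantly between 2+3d-C and F (0.24 ± 0.58, adjusted p = 0.803).

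Itgb5 (chr16:33829665-33949338, + strand) encodes beta5, the vitronectin-binding partner of alphav. It was at 17.7, 67.4 and 50.6 RPKM for F, 2.79, 1.82 and 7.56 for 2d-U, 2.15, 3.79 and 2.01 for 5d-U and 19.9, 15.2 and 30.8 for 2+3d-C, again with every compressed library above every uncompressed one. The log2 fold change was 3.05 ± 0.63 (adjusted p = 0.00349) against 5d-U, 2.43 ± 0.62 (adjusted p = 0.0108) against 2d-U and -1.04 ± 0.59 (adjusted p = 0.211) against F. Vtn, the gene of vitronectin itself, was the gene of the matrix ligand list with the largest rise in 2+3d-C, at 9.88 ± 0.92 (adjusted p = 2.56e-05) against 5d-U.

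Itgb6 (chr2:60598292-60722643, - strand) encodes beta6, the epithelial partner of alphav that activates latent TGF-beta. Its level was 0.562, 0.773 and 0.516 RPKM for F, 0.471, 0.70 and 1.02 for 2d-U, 1.49, 2.73 and 1.24 for 5d-U and 0.058, 0 and 0 for 2+3d-C. All libraries of F, 2d-U and 5d-U lay above those of 2+3d-C, where 22, 0 and 0 reads were counted. Itgb6 fell in 2+3d-C against 5d-U (-6.23 ± 1.25, adjusted p = 0.0028), 2d-U (-4.91 ± 1.18, adjusted p = 0.00798) and F (-4.67 ± 1.17, adjusted p = 0.0332). The call against F was lost without F replicate 4 or 5 or 2+3d-C replicate 5 (adjusted p = 0.074 to 0.0988), and the other calls were kept with any single library left out.

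The promoters of these 3 genes are shown because the chains of 1 receptor family moved in opposite directions. They are the 250 bases upstream of the RefSeq start nearest to the start of the gene in the files (GRCm38.p6, the build of the files), written 5' to 3' on the gene's strand. Capitals mark matches, on either strand, to the E-box CAGCTG bound by Myod1 and related factors, the AP-1 motif TGANTCA, the TEAD motif CATTCC or the Rbpj motif TGGGAA. These motifs have no letters in common in the matches shown.
Itgav, chr2:83724147-83724396, + strand: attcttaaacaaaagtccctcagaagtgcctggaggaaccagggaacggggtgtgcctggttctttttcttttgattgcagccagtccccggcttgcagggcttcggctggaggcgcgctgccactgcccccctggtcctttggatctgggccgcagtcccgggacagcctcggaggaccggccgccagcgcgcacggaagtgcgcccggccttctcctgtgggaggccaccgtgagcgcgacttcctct
Itgb5, chr16:33829415-33829664, + strand: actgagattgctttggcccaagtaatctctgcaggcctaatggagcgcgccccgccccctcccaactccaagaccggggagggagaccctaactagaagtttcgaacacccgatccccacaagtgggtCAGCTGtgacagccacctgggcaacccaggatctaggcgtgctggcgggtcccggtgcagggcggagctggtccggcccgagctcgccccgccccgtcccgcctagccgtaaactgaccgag
Itgb6, chr2:60722604-60722853, - strand: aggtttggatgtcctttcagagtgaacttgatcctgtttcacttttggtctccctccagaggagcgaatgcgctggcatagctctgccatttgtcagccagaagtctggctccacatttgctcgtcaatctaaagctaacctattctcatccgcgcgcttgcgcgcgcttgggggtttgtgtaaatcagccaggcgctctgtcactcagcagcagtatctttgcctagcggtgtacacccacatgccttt
Only the Itgb5 window held a match, 1 E-box. Of the 37 members 20 matched the promoter table with a start at most 1000 bases from the gene start, and 4 of these held the E-box, against 13% of all 32851 promoter windows of that length. AP-1 was matched in 1 of the 20 (6.75% of all windows), TEAD in 2 (12.6%) and Rbpj in 2 (21.6%). A match is a stretch of letters and not a measured binding site.

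Itga5 (chr15:103344286-103366763, - strand) encodes alpha5, which with beta1 forms the main fibronectin receptor, and fibronectin coated the culture plastic. It was at 23.0, 122 and 103 RPKM for F, 12.3, 12.6 and 11.9 for 2d-U, 3.89, 6.15 and 2.33 for 5d-U and 60.8, 11.9 and 60.7 for 2+3d-C. In 2+3d-C 2 libraries were about 5 times the 2d-U level and replicate 5 equalled it, while all 3 were above 5d-U. Itga5 fell from F to 2d-U (-2.75 ± 0.67, adjusted p = 0.00734) and was higher under compression than in 5d-U (3.43 ± 0.69, adjusted p = 0.00292). Against 2d-U the difference was at the threshold (1.86 ± 0.65, adjusted p = 0.0492), and this call was lost without any of 7 libraries (adjusted p = 0.0556 to 0.142), namely F replicates 4 and 5, all of 2d-U, and 2+3d-C replicates 4 and 10. Against F it was -0.89 ± 0.63 (adjusted p = 0.33).

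Itga9, the alpha9 chain that binds tenascin-C and osteopontin, was at 0.903, 5.62 and 5.78 RPKM for F, 0, 0 and 0 for 2d-U, 0.136, 0.0726 and 0.102 for 5d-U and 0.0463, 0.455 and 0.00594 for 2+3d-C. All F libraries were above all others, and with no read in 2d-U the gene was at least 393-fold lower there than in F and at least 16.2-fold higher in 2+3d-C (adjusted p = 0.00651). Of the compressed libraries replicate 5 held most of this signal, and without it the limit was 2.51-fold. The RGD-binding chains that follow were less abundant than Itga5, Itgav and Itgb5 in the mean of every group. Itga8, the alpha8 chain, a receptor of nephronectin, was at 2.44, 3.51 and 5.52 RPKM for F, 0.00513, 0 and 0 for 2d-U, 0.13, 0.00947 and 0.0398 for 5d-U and 4.02, 0.279 and 0.0558 for 2+3d-C, so that a single compressed library held most of the signal. It rose against 5d-U (4.61 ± 1.4, adjusted p = 0.0289) but was at 1.43 (adjusted p = 0.315) without 2+3d-C replicate 4, and the call was also lost without 5d-U replicate 2 or 6. Against 2d-U, where it was at the detection limit, it was at least 133-fold higher (15.4-fold without 2+3d-C replicate 4), and it stayed called with any single library left out. Npnt, the gene of nephronectin, fell in 2+3d-C against 5d-U (-5.57 ± 1.29, adjusted p = 0.00682). Itgb8, a partner of alphav on glia and fibroblasts, had 4, 0 and 1 reads in 2d-U and was at 1.12, 0.747 and 1.47 RPKM in F and 0.699, 0.229 and 0.0413 in 2+3d-C, and it rose from 2d-U to 2+3d-C (adjusted p = 0.00221). Itgb3 and Itga2b, the chains of the platelet integrin, had no read in 2d-U. In 2+3d-C Itgb3 was at 0.0191, 0.635 and 2.82 RPKM and Itga2b at 2.77, 0.399 and 0.0168, so that a single library, not the same for both, held most of the signal of each. As means they were at least 85.1 and 72.3-fold higher than in 2d-U, and these limits were 24-fold for Itgb3 without 2+3d-C replicate 10 and 14.1-fold for Itga2b without replicate 4, both still called. The 5 platelet markers summed to 0.45 to 4.57 CPM in 2+3d-C, and Gp9, Gp1bb and Gp6 had no read there. Pf4 was at 0.624, 2.18 and 1.65 RPKM in 2+3d-C and Ppbp at 0, 0 and 3.12. The part of platelets in these levels was not tested.

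**Figure D5:**
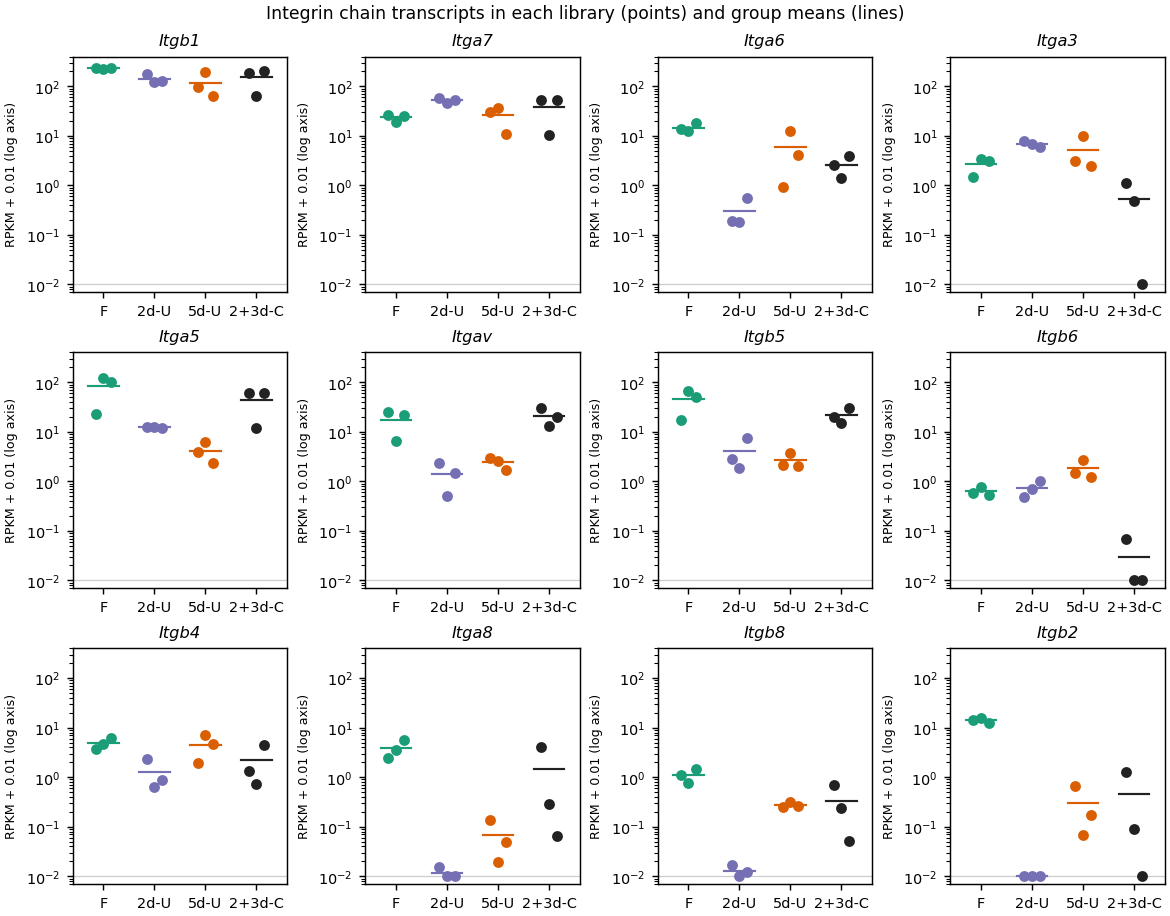
Level of 12 integrin genes (y axis, RPKM + 0.01 on a log axis) in the 3 libraries of each group (x axis). Points are libraries and lines are group means, and points on the grey line are at 0. Itgb1 and Itga7 are high in all groups, Itgav and Itgb5 are higher in 2+3d-C than in both uncompressed cultures, and Itgb6 and Itga3 are lower.

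The laminin-binding integrins were divided. Itga7 (chr10:128933818-128958282, + strand) encodes alpha7, the laminin receptor of muscle cells, and was at 26.4, 19.1 and 25.2 RPKM for F, 59.1, 45.9 and 54.0 for 2d-U, 31.1, 36.4 and 10.8 for 5d-U and 52.6, 10.3 and 52.4 for 2+3d-C. The groups overlapped, and no comparison called it, with differences of 0.56 in 2+3d-C against 5d-U, -0.46 against 2d-U and 0.71 against F, each with an SE of 0.55. Itgb1 gave 0.37 ± 0.48 (adjusted p = 0.561) against 5d-U, 0.09 ± 0.48 (adjusted p = 1.0) against 2d-U and -0.63 ± 0.48 (adjusted p = 0.368) against F. With SEs of this size the values do not show that the levels were equal.

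Itga6 (chr2:71745616-71858416, + strand), the alpha6 chain of the laminin receptors alpha6beta1 and alpha6beta4, was lost early in culture. It was at 13.7, 12.5 and 18.2 RPKM for F, 0.184, 0.171 and 0.538 for 2d-U, 0.899, 12.7 and 4.13 for 5d-U and 2.59, 1.37 and 3.89 for 2+3d-C. The 3 libraries of 2d-U were below all others, and those of 5d-U spread over more than a factor of 10. Itga6 fell from F to 2d-U (-5.63 ± 0.89, adjusted p = 0.000531), and both later groups were above 2d-U, 5d-U by 4.31 ± 0.84 (adjusted p = 0.0231) and 2+3d-C by 3.13 ± 0.79 (adjusted p = 0.0109). Between 2+3d-C and 5d-U the difference was -1.17 ± 0.74 (adjusted p = 0.218). The fall to 2d-U and the level of 2+3d-C above 2d-U were called in all 20 alternative fits, whereas the call of 5d-U against 2d-U was lost without 2d-U replicate 1 or 2 (adjusted p = 0.0522 and 0.0527).

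Itga3 (chr11:95044474-95076801, - strand), the alpha3 chain that binds laminin-332 and laminin-511, was like Lamb3 lowest in 2+3d-C and highest in the uncompressed cultures. Its level was 1.46, 3.44 and 3.14 RPKM for F, 7.92, 7.0 and 5.99 for 2d-U, 3.15, 9.97 and 2.42 for 5d-U and 1.14, 0.465 and 0 for 2+3d-C. The compressed libraries were below all others, with no read in 2+3d-C replicate 10. It was lower under compression than in 5d-U (-3.26 ± 1.1, adjusted p = 0.0461) and than in 2d-U (-3.69 ± 1.12, adjusted p = 0.0275). The call against 5d-U was lost when any F library, 5d-U replicate 2 or 2+3d-C replicate 5 was left out (adjusted p = 0.059 to 0.115), and against 2d-U without 2+3d-C replicate 5 (0.058). Itgb4, the beta4 chain of hemidesmosomes that pairs with alpha6, was at 3.72, 4.67 and 6.12 RPKM for F, 2.28, 0.631 and 0.869 for 2d-U, 1.89, 7.08 and 4.59 for 5d-U and 1.35, 0.706 and 4.52 for 2+3d-C and was called only as a fall from F to 2d-U (-1.94 ± 0.74, adjusted p = 0.0472), a call that was lost without F replicate 4 or 5, 2d-U replicate 2 or 3 or 5d-U replicate 6 (adjusted p = 0.0612 to 0.122).

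The collagen-binding alpha chains were highest in F replicates 4 and 5, both among the libraries with reads on silent families. In F Itga1 was at 1.71, 2.77 and 4.95 RPKM, Itga2 at 0, 1.18 and 1.34, Itga10 at 0.168, 0.44 and 0.615 and Itga11 at 0.268, 8.47 and 11.5. In F replicate 1 Itga1 was still above all cultured libraries, whereas Itga2 had no read there and Itga10 was below 5d-U replicate 1. In 2d-U Itga1, Itga10 and Itga11 were at the detection limit, and Itga1 was at least 728-fold and Itga11 at least 432-fold lower than in F. In 2+3d-C Itga11 had 335, 3 and 1 reads and Itga1 502, 54 and 0, so both rested on few libraries. The rise of Itga11 against 2d-U ended without 2+3d-C replicate 4 or 2d-U replicate 1 or 3 (adjusted p = 0.0772 to 0.402). Itga11 and Itga1 are known from fibroblasts and other stromal cells, whose markers moved in the same order, and their part was not tested. Of the exon bases of Itga10, 33.5% overlap Gm42957, and reads of the 2 genes cannot be told apart without strand.

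The leukocyte integrins of the beta2 family were present in F and at the detection limit in 2d-U. In 5d-U and 2+3d-C their means were lower than in F. Itgb2, the common beta chain of this family, was at 14.0, 15.4 and 12.7 RPKM for F, 0, 0 and 0 for 2d-U, 0.656, 0.0572 and 0.16 for 5d-U and 1.25, 0.0792 and 0 for 2+3d-C, with 203, 2 and 0 reads in 2+3d-C. Its partners Itgal, Itgam, Itgax and Itgad were at 0.147 RPKM or above in F except for Itgad in replicate 1, which had no read, and at most 1 read was counted on any of them in a 2d-U library. In 2+3d-C only Itgal and Itgam had reads, 19 and 24 in replicate 4. Itgb2 was at least 534-fold lower in 2d-U than in F. Its rise from 2d-U to 2+3d-C (at least 16.8-fold, adjusted p = 0.0109) ended without 2+3d-C replicate 4 (adjusted p = 0.147). Reads on Itgam cannot be separated from Gm49368, which covers 68.7% of its exon bases. Itga4, which pairs with beta1 or beta7, and Itgae, which pairs with beta7, had 36, 24 and 16 and 26, 8 and 16 reads in 5d-U and none in 2+3d-C. Itgb7 was at 7.4, 4.88 and 4.59 RPKM for F, 0.293, 0 and 0 for 2d-U, 0.769, 0.328 and 0.194 for 5d-U and 1.16, 0.0872 and 0 for 2+3d-C, highest in every F library, and fell from F to 2d-U (-5.78 ± 1.91, adjusted p = 0.0295), a call that ended with any of 4 libraries left out (adjusted p = 0.0542 to 0.0663).

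The calls of Itga4, Itgae and Itgax as lower under compression than in 5d-U (at least 5.73, 3.95 and 1.71-fold) rested on few reads. From the density on silent families 53.7, 0.843 and 8.96 reads would be expected on Itga4 in the 5d-U libraries, against 36, 24 and 16 counted, so that 5d-U replicate 2 held far more than expected. After subtraction of such reads all 3 kept their direction and none was called (adjusted p = 0.0595, 0.0634 and 0.108). With single libraries left out Itga4 stayed called, Itgae was lost when any one library of F, 5d-U or 2+3d-C was omitted (0.0526 to 0.136), and Itgax when any one of the 12 was (0.0569 to 0.158). Subtraction left the other 14 calls of this comparison in direction, and Itga3 (adjusted p = 0.0562) and Lamb1 (0.0561) also missed the threshold.

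Against the start of compression (2+3d-C against 2d-U) 20 members rose and 4 fell, where 16% of all tested genes rose and 8.63% fell. The median log2 fold change was 3.13 over the members (2.67 with genes at the detection limit set to their bound and those at the limit in both groups left out), and 0 over all genes. The 4 that fell were Lamb1, Lamb3, Itga3 and Itgb6. Of the laminins, 8 of 11 rose. Itga6, Itga8, Itgav and Lamb3 were called in all 20 alternative fits of this comparison.

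Against freshly sorted cells (2+3d-C against F) no member was higher and 6 were lower, which are Itga4, Itgae, Itgal, Itgax, Itgb6 and Lamb1. Of all tested genes 1.94% were higher and 4.47% lower. The median log2 fold change was -2.31 for the members, -3.19 for integrins (-2.78 with limits) and -0.82 for laminins, and -0.76 for all genes. All 6 calls were lost when F replicate 4 or F replicate 5 was left out. For the chains of adult muscle laminin other than beta1, Lama2, Lamb2 and Lamc1, the differences from F were 0.51, -0.83 and 0.01, with SEs of 0.66, 1.16 and 0.52. Lamb1, the gene of the beta1 chain, was called lower than in F at -2.89.

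From F to 2d-U, 29 of 37 members fell and Lamb3 rose, where 33.3% of all tested genes fell and 10.6% rose. The median log2 fold change was -5.78 for the members (-4.97 with limits) and -1.63 for all genes. The members that were not called were Itgb1, Itga7, Itga3, Itgb6, Itgae, Lamb1 and Lama5. Itga2, Itgad and Lama1 had 0, 0 and 2 reads in F replicate 1, so their falls rested on F replicates 4 and 5. After subtraction of reads on silent families 27 of 36 members fell and 1 rose (26.5% and 13.1% of all genes). At a mean of at least 5 CPM 16 of 23 fell and 0 rose (28.2% and 17.4% of all genes). From 2d-U to 5d-U only Itga4, Itga6, Itgb8 and Lama3 were called, all as higher, where 1.87% of all genes were higher and 0.243% lower. Lama3 and Itga4 were at the detection limit in 2d-U, and none of the 4 calls remained after subtraction of the reads on silent families. For Itga6 and Itgb8 the change stayed nearly as large, at 4.03 (adjusted p = 0.0535) against 4.31, and at 5.59 (adjusted p = 0.0677) against 6.2. From F to 5d-U, 14 members fell and none rose, against 8.9% and 11.6% of all genes.

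With F replicates 4 and 5 and 5d-U replicates 1 and 6 left out, a single library remained in F and in 5d-U, which was assumed to vary like the other groups. In that fit 3 of the 17 calls against 5d-U remained (Lama2, Lamc1 and Lamb1), where 2.18% of all genes rose and 3.72% fell, and 13 members were called against 2d-U, where 10.8% rose and 6.4% fell. The 17 log2 fold changes against 5d-U kept their direction in this fit.

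The genes that act with integrins and laminins were counted on fixed lists. Of 28 genes of the adhesion machinery inside the cell, 5 rose and 3 fell in 2+3d-C against 5d-U, with a median log2 fold change of 0.18, where 9.14% of all genes rose and 13.4% fell. The largest rises were Vcl (2.44 ± 0.66, adjusted p = 0.0167), the gene of vinculin, and Fermt2 (2.19 ± 0.42, adjusted p = 0.0021), the gene of the integrin activator kindlin-2, and the largest falls were Parvb (-5.53 ± 1.01, adjusted p = 0.0015) and Tns3 (-4.33 ± 0.88, adjusted p = 0.00306), which encode the integrin-linked proteins beta-parvin and tensin-3. Against 2d-U 7 rose and 4 fell (16% and 8.63% of all genes), and against F 1 (Zyx) rose and 1 (Parvg) fell (1.94% and 4.47% of all genes).

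Of 21 matrix ligands and laminin partners, 6 rose and 2 fell against 5d-U, with a median of 1.00. After Vtn the largest rise was that of Tnxb (6.17 ± 1.34, adjusted p = 0.00467), the gene of tenascin-X, and Col15a1 (5.91 ± 1.14, adjusted p = 0.00301) and the basement membrane genes Col4a1, Col4a2 and Nid2 also rose, the last 3 named after their values were seen. The genes that fell were Spp1 (-8.48 ± 1.12, adjusted p = 0.000156), the gene of the RGD protein osteopontin, and Npnt. Against 2d-U 10 rose and 2 fell, and against F none rose and 4 fell, with the largest falls in Fbln1 (-4.47 ± 0.97, adjusted p = 0.0204) and Fbln2 (-3.7 ± 1.01, adjusted p = 0.045), which encode fibulins of elastic fibers and basement membranes. Tnxb and Col15a1 are also made by stromal cells, whose markers exceeded those of both uncompressed cultures in 2+3d-C, and their part was not tested.

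Of 14 other laminin receptors and tetraspanins, 4 rose and 1 fell against 5d-U, with a median of 0.61. Dag1 (4.6 ± 0.66, adjusted p = 0.000289), the gene of dystroglycan, the main laminin receptor beside the integrins, and Dmd (4.24 ± 0.84, adjusted p = 0.00261), the gene of dystrophin, rose most, and Sgcd, the gene of delta-sarcoglycan, which had no read in 2+3d-C, was at least 3.27-fold lower (adjusted p = 0.0192). These counts on both lists stand beside the same shares of all genes as above. Against 2d-U 9 rose and none fell, and against F 1 (Sgca) rose and 2 (Bcam and Sgcd) fell.

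Over the 12 libraries the members with the most alike profiles were Itgal and Itgam (Pearson r = 0.984 of log2(RPKM + 0.1)) and Itga2 and Itgad (r = 0.968). Itgal and Itgam had reads in every F library, whereas Itga2 and Itgad had none in F replicate 1 and were highest in F replicates 4 and 5. The points share their libraries and their low depth on these genes, so the values are descriptions.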

How the data were processed

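RNA-seq of 12 mouse MuSC libraries was analysed, 3 in each of the groups fresh (F), 2dU (2d-U), control (5d-U) and compress (2+3d-C) of the labels. The authors made cDNA with a SMART-Seq kit, used the nf-core pipeline to align single-end reads of 75 bases (mm10) and deposited raw counts per gene, made by featureCounts over GENCODE vM23 exons without strand. Overlapping genes therefore cannot be separated by strand. The authors' merged table of the same libraries was not used here.

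Counts were tested with edgeR 4.0.16 in R 4.3.3 (filterByExpr, TMM, a quasi-likelihood fit of all 12 libraries with 1 coefficient for each group, two-sided, Benjamini-Hochberg adjustment over 22635 genes). The study's methods use DESeq2, which was run as an alternative (version 1.42.0). Other alternatives were scaling by library size alone, no filter for low counts, a mean of at least 5 CPM, the replicate number as a block, the 2 compared groups alone, subtraction or omission for reads on silent families, and each library left out. RPKM used TMM-scaled library sizes and the exon lengths in the files. With 3 libraries against 3 an exact permutation test cannot give a p below 0.1, so none was made. Comparisons that share a group are not independent.

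The members and gene lists were chosen with earlier results of these data known. Every member could be named, although 1 of the 37 enters the counts only and is not reported here, and of each list the 2 called genes with the biggest rise and the 2 with the biggest fall in each comparison with 2+3d-C, besides markers that move with a member. Col4a1, Col4a2 and Nid2 are outside this rule. Promoter sequences are from RefSeq (GRCm38.p6). The procedure was tested on simulated data for 2+3d-C against 5d-U. It called 49 of 104 genes with a log2 change of 3 in size and 90 of 96 with a change of 5. There were 3 false calls, and 0 in data without a change. A gene that was not called may thus still have differed. The simulation did not model the reads on silent families of single libraries. Deviations of same-numbered libraries of different groups had correlations of -0.424 to 0.0322, and those of other pairs -0.436 to 0.4775. These values cannot show whether libraries share a sort, since reads on silent families also differ between libraries. Numbers were not taken as pairs because the sources used here do not tie them to a sort. Counting error sets the detection limit of 3 reads, and PCR copies are not independent molecules.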

Additional observations from a re-analysis of the deposited data

How the results depend on the processing

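Numbers of called members are given in the order 2+3d-C against 5d-U, 2+3d-C against 2d-U, 2+3d-C against F, 5d-U against 2d-U, 2d-U against F and 5d-U against F, and were 17, 24, 6, 4, 30 and 14. DESeq2 gave 17, 25, 12, 13, 30 and 22. By DESeq2 14.2% of all genes were higher in 5d-U against 2d-U (1.87% in the main fit). In 5d-U against F 20.8% were lower (8.9% in the main fit). The share of all genes called moved as well, over the alternatives from 2.18 to 21.5% higher and 3.72 to 21.8% lower in 2+3d-C against 5d-U, and from 0.0985 to 32% lower against F, the last without F replicate 1, with 20.5% by DESeq2. Library size without TMM gave 15, 19, 7, 1, 28 and 14, and moved the median log2 fold change of all genes in 2+3d-C against 5d-U from -1.05 to -1.21, against F from -0.76 to -1.24 and in 5d-U against 2d-U from 1.13 to 0.65. No filter on low counts gave 18, 25, 16, 13, 32 and 19, and a mean of at least 5 CPM, which left 23 members, gave 13, 19, 3, 1, 16 and 15. With that mean the median log2 fold changes of all genes were -0.00013, 0.244, -0.0742, 0.343, -0.21 and -0.0674. Fits of the 2 compared groups alone gave 10, 11, 7, 6, 31 and 21. Subtraction of reads on silent families gave 12, 22, 3, 0, 28 and 17, and leaving out the 4 libraries with such reads gave 3, 13, 0, 0, 7 and 0. With single libraries left out the counts ranged over 8 to 16, 18 to 24, 0 to 13, 0 to 10, 23 to 31 and 8 to 19. Against 5d-U the count was 8 without 5d-U replicate 2, 10 without 5d-U replicate 6 and 9 without 2+3d-C replicate 4. Against F it was 0 without F replicate 4 or 5, 2 without 2+3d-C replicate 5 or 10, 10 without 5d-U replicate 1 and 13 without F replicate 1. In 5d-U against 2d-U it was 0 without 2d-U replicate 2, 1 without 2d-U replicate 3, F replicate 1 or F replicate 5, 2 without F replicate 4, 2d-U replicate 1 or 5d-U replicate 6, and 8 to 10 without 5d-U replicate 2 or any 2+3d-C library. In 5d-U against F it was 8 without 5d-U replicate 6. The causes were not tested. Batches of sorted cells were divided at random over the conditions, so libraries may share a batch, but which do is not given in the sources used here, and numbers were not taken as pairs. With the replicate number as a block the counts were 4, 9, 12, 7, 19 and 2. The 4 called against 5d-U were all lower, so none of the 10 rises kept its call, with Itga5 at 0.34. Under the block Itga11 (-0.33), Itga5 (-0.998) and Lama1 (-0.995) reversed in 2+3d-C against 2d-U, and Itga2 (4.96) and Itgad (0.56) in 2d-U against F, none of them called, and Itga2 also reversed without the 4 libraries (3.71, adjusted p = 0.599). No other called member reversed under any alternative. Depth limits the genes at 3 or fewer reads, for which folds are bounds.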
